A study of Mus musculus with 18 samples.

Results

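The VH segments of the mouse immunoglobulin heavy chain locus (Igh) were described here as a set of ChIP-seq peak sites for RAD21, a core subunit of cohesin, and for NIPBL, the protein that loads cohesin onto DNA and drives its movement. All called peaks that overlapped chr12:114815001-117250000 (mm9), a stretch of 2.435 Mb, were taken from 14 peak lists. They numbered 4571 of the 1009859 peaks in all lists, and overlapping peaks merged into 1085 sites, against 346850 merged regions over the whole genome. Of these sites, 963 held a RAD21 peak, 213 held a NIPBL peak and 91 held both.

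The cells were a v-Abl transformed pro-B line, a culture model of the stage at which heavy chain genes are assembled, arrested before fixation with STI-571, an inhibitor of the Abl kinase, at 3 uM for 4 days. By the labels, all groups carried a JH deletion, dCas9, Emu-Bcl2 and RAG2 deficiency, which removes the RAG endonuclease. The block group also expressed the Sg1-sgRNA, a guide that brings catalytically dead Cas9 to DNA, and was compared with dCas9 control cells that lacked that guide, for RAD21 (2 libraries each) and for NIPBL (2 each). The Ig2b deleted group carried Ig2b-del/del and was compared with the Ig2b wild type group, for RAD21 (3 each). The labels give 1 kind of line for all groups and do not say whether replicates were separate cultures or clones, so each p-value measures only the spread between these libraries.

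In developing B cells the RAG endonuclease binds at the DH and JH segments, and cohesin is known to reel the chromatin of the upstream VH segments past it by loop extrusion. CTCF, which binds a directional motif, stalls cohesin on one side, and many VH genes of the proximal families have a CTCF site just behind their recombination signal sequence (RSS), the heptamer and nonamer cut by RAG. Igh lies on the minus strand of chromosome 12, so that rising coordinates run from the proximal VH genes, next to DH, to the distal ones. Ighv2 (Q52) and Ighv5 are the proximal families, Ighv1 (J558) and Ighv8 the distal ones, and a group of small families lies between them. GENCODE gene models of the same build placed 115 Ighv genes in the stretch.

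The sequences that carry the proximal pattern are shown first. Each of the first 5 lines below starts at the annotated 3′ end of a VH gene, runs 90 bases toward DH, and belongs to one of the 5 most proximal sites with a RAD21 peak in all 10 RAD21 lists. Capitals mark a CACANTG heptamer, the first part of the RSS, and the match to the 11-base core of the CTCF consensus.
Ighv5-2, chr12:114816625-114816714, minus strand: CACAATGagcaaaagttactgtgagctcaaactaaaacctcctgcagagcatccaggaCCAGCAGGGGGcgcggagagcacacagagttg
Ighv2-2, chr12:114826388-114826477, minus strand: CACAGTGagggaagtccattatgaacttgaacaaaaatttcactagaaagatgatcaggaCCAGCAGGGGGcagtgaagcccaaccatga
Ighv5-4, chr12:114835567-114835656, minus strand: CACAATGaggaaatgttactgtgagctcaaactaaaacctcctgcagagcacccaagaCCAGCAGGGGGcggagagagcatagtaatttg
Ighv2-3, chr12:114849305-114849394, minus strand: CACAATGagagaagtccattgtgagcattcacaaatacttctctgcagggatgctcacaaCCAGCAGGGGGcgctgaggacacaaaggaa
Ighv5-6, chr12:114863627-114863716, minus strand: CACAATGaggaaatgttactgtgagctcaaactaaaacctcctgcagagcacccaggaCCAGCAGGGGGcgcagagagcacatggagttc

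All 5 held the core in the orientation of the gene, and its middle lay 64 to 66 bp past the gene's 3′ end. The next 5 were chosen after their values were seen, to show where the letters and the peaks went together and where they did not. In Ighv7-1, Ighv2-4 and Ighv2-7 the capitals mark 10 of 11 matching positions, in Ighv13-1 all 11, and in Ighv1-77 the heptamer alone, since its best match there was 8 of 11.
Ighv7-1, chr12:115134535-115134624, minus strand: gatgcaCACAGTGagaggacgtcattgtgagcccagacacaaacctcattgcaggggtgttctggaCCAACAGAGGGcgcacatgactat
Ighv2-4, chr12:114891412-114891501, minus strand: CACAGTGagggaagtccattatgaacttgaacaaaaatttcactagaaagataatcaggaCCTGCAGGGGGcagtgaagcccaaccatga
Ighv2-7, chr12:115045435-115045524, minus strand: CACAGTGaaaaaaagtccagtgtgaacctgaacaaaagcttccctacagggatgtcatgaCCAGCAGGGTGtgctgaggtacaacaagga
Ighv13-1, chr12:115505728-115505817, minus strand: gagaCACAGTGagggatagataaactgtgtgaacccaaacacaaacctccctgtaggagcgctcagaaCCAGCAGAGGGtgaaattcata
Ighv1-77, chr12:117099988-117100077, minus strand: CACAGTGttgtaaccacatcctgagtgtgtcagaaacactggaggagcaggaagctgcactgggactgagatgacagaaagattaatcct

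RAD21 peaks lay at the end of Ighv7-1 and of Ighv1-77 in 10 of 10 lists, at that of Ighv2-4 in 2 lists and at those of Ighv2-7 and Ighv13-1 in none. The last sequence is the middle of the most distal RAD21 site found in all 10 lists, which was centred at -11011 bp from the 3′ end of Ighv1-85 (negative meaning upstream), with its core again in capitals.
Ighv1-85, chr12:117249243-117249303, minus strand: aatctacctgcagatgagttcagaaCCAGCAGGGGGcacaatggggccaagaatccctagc

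The 10 RAD21 lists held 44729 to 82688 peaks over the genome and covered 11.6 to 34.4 Mb, and the 4 NIPBL lists held 63052 to 123391 peaks over 20.3 to 29.8 Mb. Read depth was not given, so values below are the presence and the length of called peaks, and no value corrects for depth. Of 10 genes of the early B lineage (such as Pax5), 9 had a RAD21 peak within 5 kb of a start in each of the 10 RAD21 lists, and all 10 a NIPBL peak in each of the 4 NIPBL lists. Of 8 T cell genes, 3 had a RAD21 peak in each of the 10 lists, and the T cell genes Cd3e, Cd8a and Tcf7 had one in none. RAD21 peaks lay in every list at 3 of 6 myeloid and 2 of 5 erythroid genes, and NIPBL peaks in every NIPBL list at 4 of 8 T cell, 5 of 6 myeloid and 3 of 5 erythroid genes. RAD21 block replicate 2 stood apart from the other RAD21 libraries in VH. It had 180 VH peaks, against 364 to 612 in the other 9 lists, so results that rest on it are given with and without it. The RAD21 lists of the dCas9 experiment were also named in one way for both replicate 1 libraries and in another for both replicate 2 libraries, a technical difference for which values within each number are given. Relative coverage of Igk V, given below, also split by number in these libraries.

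RAD21 covered far more of VH than of the genome in every library. Relative coverage, the percent of VH covered by peaks divided by the percent of the genome covered, was 7.35 and 2.11 in RAD21 block libraries, against 9.25 and 6.47 in RAD21 control libraries. It was 11.6, 11.1 and 11.1 in Ig2b deleted libraries, against 11.3, 10.5 and 11.9 in Ig2b wild type libraries. It was 0.842 and 0.788 in NIPBL block libraries, against 0.580 and 0.619 in NIPBL control libraries. Thus all 10 RAD21 values were above 2 and all 4 NIPBL values below 1. Over RAD21 the mean was 9.26 ± 3.11 (SD, n = 10), and 10.1 ± 1.95 (n = 9) without block replicate 2. The covered percent itself was 6.59 and 2.52 in RAD21 block libraries, against 5.56 and 8.43 in RAD21 control libraries. It was 7.99, 10.5 and 4.99 in Ig2b deleted libraries and 6.08, 6.01 and 5.23 in Ig2b wild type libraries.

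**Figure D1:**
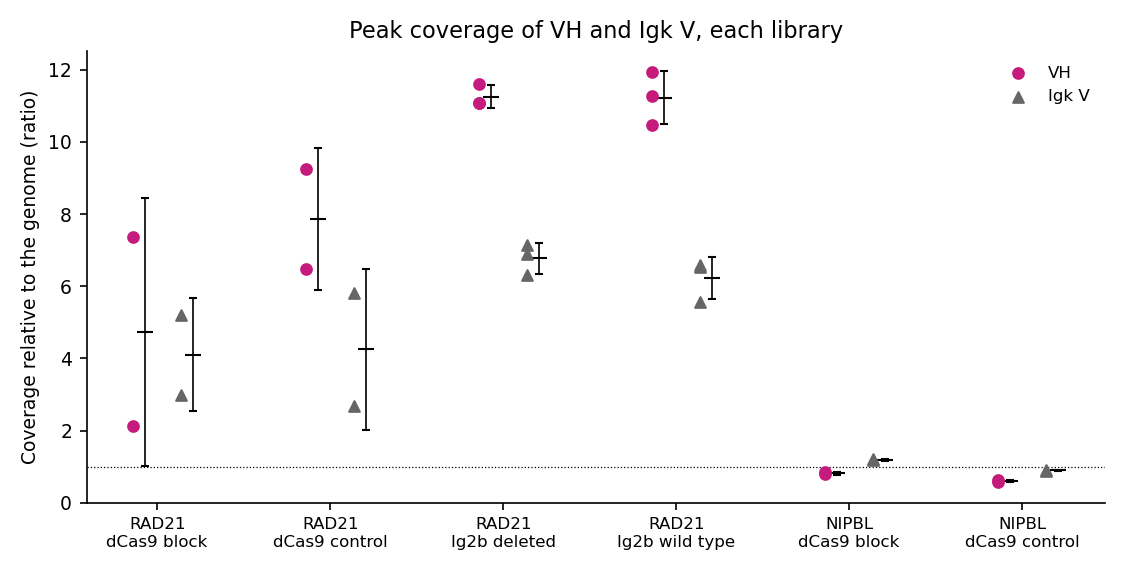
Relative coverage of VH and of the Igk V segments (ratio of the covered share of the locus to that of the genome, y axis) in each library of the 6 groups (x axis), with points for libraries. In VH, RAD21 libraries lie above 1 and NIPBL libraries below 1, and RAD21 block replicate 2 is the lowest RAD21 library.

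In the cells of the dCas9 experiment, cohesin was set against its loader. The difference in log2 relative coverage of VH, RAD21 minus NIPBL, was 2.98, a ratio of 7.90, with log2 means of 2.46 ± 0.948 for RAD21 and -0.52 ± 0.261 for NIPBL (SD, n = 4 each). The groups did not overlap (p = 0.0286 by exact permutation, two-sided, which no split of 4 against 4 can go below). Leaving out 1 library gave 2.73 to 3.44, with p = 0.0286 without any 1 RAD21 library and p = 0.0571 without any 1 NIPBL library, by the same exact test. With peaks of −log10 q of at least 3 only, the log2 difference was 4.29. Median widths of VH peaks were 221 to 284.5 bp in RAD21 lists and 121.5 to 162 bp in NIPBL lists.

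The Igk V segments, the light chain locus that is most like VH, covered 3.15 Mb of chromosome 6. RAD21 relative coverage there was 2.99 and 5.21 in block libraries, against 2.67 and 5.82 in control libraries, and 5.56 to 7.14 in the 6 Ig2b libraries. VH exceeded Igk V by 0.67 on the log2 scale (SD of the differences 0.813, n = 10, a ratio of 1.59), and VH was higher in 9 of 10 libraries (exact two-sided sign-flip permutation p = 0.0312). The exception was block replicate 2, with -1.30, and without it the difference was 0.89 (exact sign-flip p = 0.00391). The same test gave p of 0.0547 to 0.0625 when control replicate 1, block replicate 1 or any 1 Ig2b library was left out, and 0.0352 without control replicate 2.

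A small group of sites made up most of the RAD21 coverage. A RAD21 peak was present in all 10 RAD21 lists at 132 of the 1085 sites (12.2%), which are called constant sites below, and 520 sites (47.9%) were found in a single list. The number of constant sites was 84 with peaks of −log10 q of at least 3, and 10 when each list had to cover 50% of the merged site. At 1 of the 132, no base was covered in more than 8 lists. The constant sites held 54.1% to 87.4% of the VH bases that each RAD21 library covered, and the highest share was that of block replicate 2. The number of sites fell from 430 in 1 RAD21 list to 24 in 7 lists and was larger again at 45 in 9 lists and 132 in 10. Median site width was 117.5 bp at 1 list, 794 bp at 9 lists and 906 bp at 10 lists, where 27 sites were at least 2 kb wide. Width of a merged site grows with the number of lists merged, so it is not independent of recurrence. The median percentile of the authors' fold within its own list was 15.7 at 1 list, 42.7 at 9 lists and 77.4 at 10 lists.

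Of the 45 sites in 9 of 10 lists, 30 lacked a peak only in block replicate 2 and 5 only in control replicate 1, and no other library accounted for more than 3. All 30 lay distal of the midpoint of VH, none held the CTCF core, and their median fold percentile was 38.0. At the same 30 sites the median covered length was 390 bp in block replicate 1, against 347 bp and 309.5 bp in the control libraries. Without block replicate 2 the number of constant sites was 162. At the 132 constant sites the median covered length was 483.5 bp and 349 bp in block libraries, against 387.5 bp and 743.5 bp in control libraries.

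**Figure D2:**
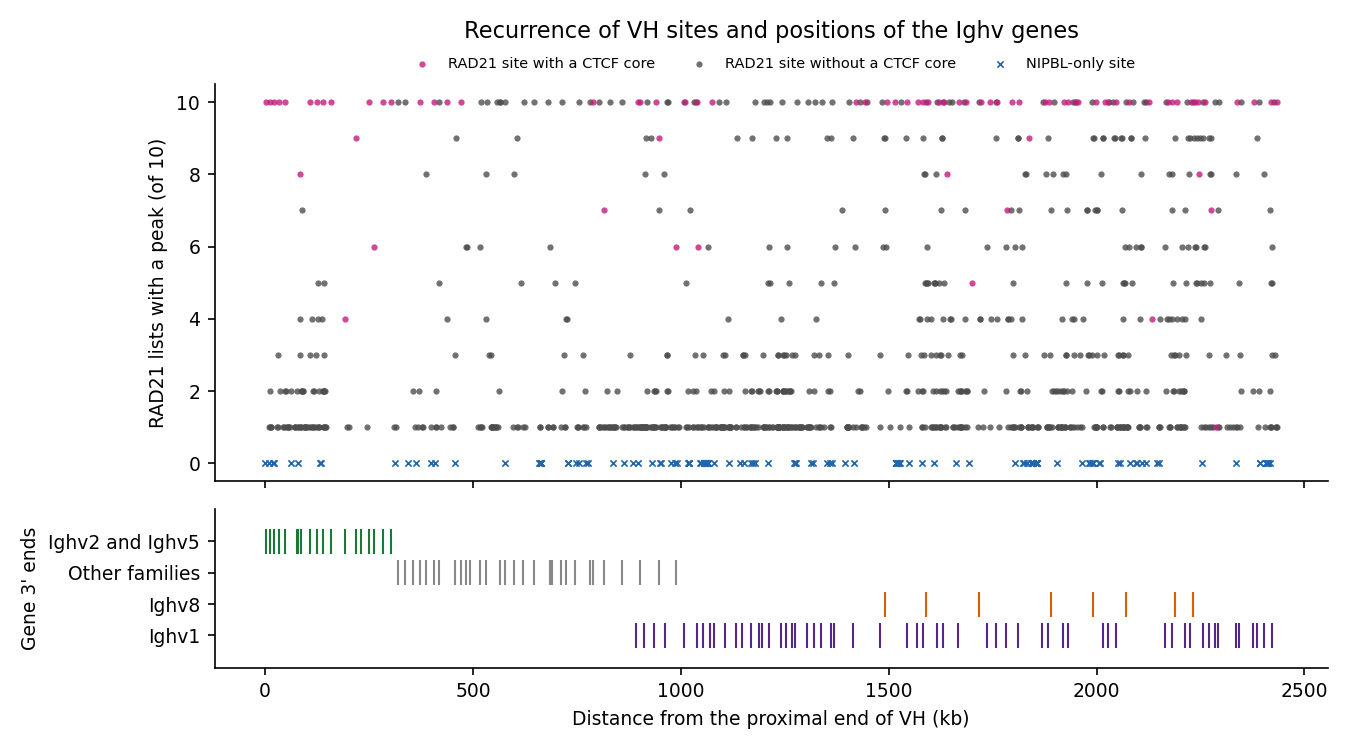
Number of RAD21 lists with a peak (y axis, of 10) at each merged site along VH (x axis, kb from the proximal end). Sites with and without a CTCF core are set apart, and sites with NIPBL peaks only are crosses. The 3′ ends of the Ighv genes are marked below, by family. Constant sites, those at the top of the y axis, run through all of VH and are closest together toward its distal end.

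From the proximal to the distal end, RAD21 coverage rose. In 10 stretches of 243.5 kb from proximal to distal, the median percent covered over the 10 RAD21 libraries was 3.18, 1.91, 2.02, 3.03, 3.86, 4.05, 8.60, 7.47, 15.1 and 10.4. The ninth stretch, from Ighv8-11 to Ighv8-13, was the highest. There the RAD21 block libraries had 18.0% and 3.95%, against 15.1% and 17.8% in control libraries. The stretches held 9, 10, 10, 12, 12, 11, 18, 15, 18 and 17 constant sites and 15, 14, 12, 11, 13, 10, 9, 10, 8 and 13 genes. Where coverage was high, genes were therefore not more frequent.

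VH was also cut into 3 parts of equal length. The distal part had 11.3% ± 3.91 of its bases covered by RAD21 peaks, against 2.54% ± 0.804 in the proximal part (SD, n = 10). The difference of 8.79 points held in 10 of 10 libraries (exact two-sided sign-flip permutation p = 0.00195, the smallest that 10 libraries allow), and leaving out any 1 library gave 8.12 to 9.55 points. It was 4.34 points with peaks of −log10 q of at least 3 only, with the same p. It was 1.93 points in block replicate 2 and at least 7.57 points in each of the other 9. NIPBL ran the same way in 4 of 4 libraries, with 1.02% in the distal and 0.403% in the proximal part (difference 0.616 points, exact sign-flip p = 0.125, the smallest that 4 libraries allow). In NIPBL control replicate 2 the difference was only 0.076 points, against at least 0.569 points in each of the other NIPBL libraries. The share of 31-base words that occur once in the genome also differed along VH. In the 10 stretches from proximal to distal it was 59.3%, 67.3%, 77.6%, 73.2%, 56.5%, 68.5%, 49.5%, 39.5%, 48.8% and 49.7%. It was thus lowest in the last 4 stretches but did not fall steadily, and its part in the result was not tested.

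**Figure D3:**
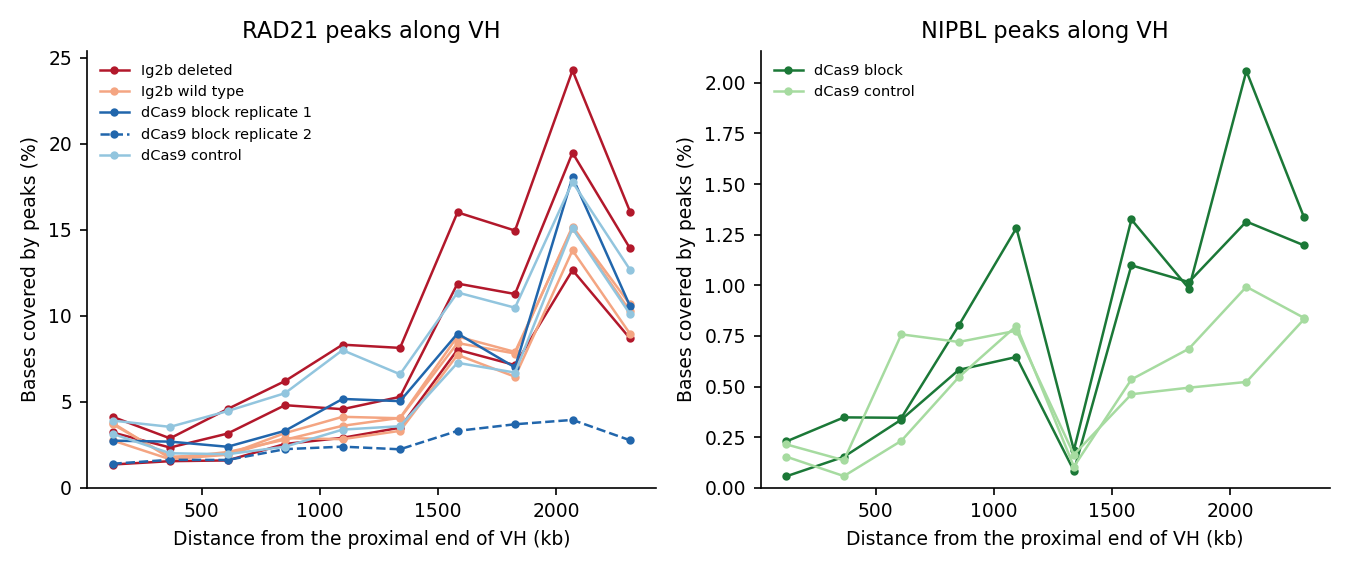
Percent of bases covered by peaks (y axis) in 10 stretches of 243.5 kb along VH (x axis, kb from the proximal end), by library. RAD21 libraries lie highest in the ninth stretch, at 12.6% to 24.2% in 9 libraries and 3.95% in block replicate 2.

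Constant sites were dense in VH, at 54.2 per Mb, against 31.1 per Mb in Igk V and 9.71 per Mb in the genome, by the same count. The median distance between neighbours was 14.3 kb (interquartile range 8.17 to 24.9), against 17.8 kb between Ighv genes. It was 9.50 kb in the distal, 17.0 kb in the middle and 19.0 kb in the proximal part. The 3 longest gaps were 90.6 kb from Ighv5-9-1 to Ighv5-15, 70.5 kb from Ighv1-18 to Ighv1-23, and 60.0 kb from Ighv5-6 to Ighv2-5. None was empty. They held 5, 36 and 34 sites found in fewer lists. The share of 31-base words that occur once in the genome was 72.4%, 42.7% and 39.0% in these gaps, and its part in them was not tested.

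The core of the CTCF consensus marked the sites of highest recurrence. VH held 86 exact cores, of which 85 lay on the minus strand, that of the genes, and 79 lay in a site with a RAD21 peak. All 63 cores in constant sites were on the minus strand. Of 24 cores in Igk V 17 were on the plus strand, as were 49.4% of the 31746 cores of the genome. The core was present in 47.7% of constant VH sites, 6.67% of sites in 9 lists and 0.233% of sites in 1 list. The same share was 15.3% for constant sites of Igk V and 26.5% for those of the genome outside VH. Where present, the core was a median of 16 bp from the centre of the constant site, taken as the middle of the bases covered by most RAD21 lists.

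Many further sites were 1 letter away. In the 200 bases around the centre, 44 constant sites without an exact match there had 10 of 11 positions, 41 of them on the minus strand. Together with exact matches, 76.5% of constant sites had at least 10 of 11, against 5.75% of 487 windows of 200 bases placed every 5 kb of VH, where exact cores occurred in 7. Constant sites with a core had a median fold percentile of 80.9 and a median width of 1068 bp, and those without had 65.8 and 848 bp.

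Placement at the gene separated 3 domains. The proximal domain (302.74 kb, 19 genes of Ighv2 and Ighv5) had 12 constant sites, and all 12 lay within 200 bp of a gene's 3′ end and held a core. The middle domain (589.575 kb, 27 genes) had 23 constant sites, of which 12 were within 1 kb of a 3′ end and 5 held a core. The distal domain, from the first Ighv1 gene on (1542.685 kb, 69 genes), had 97 constant sites, of which 14 were within 1 kb of a 3′ end and 46 held a core. Constant sites of the distal domain thus lay mostly away from the 3′ ends.

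In the proximal domain, positions were nearly fixed. Positions are given from the gene's 3′ end, positive past it toward DH and negative upstream, on the side of the V exon and its promoter. The 12 constant sites of Ighv2 and Ighv5 were centred at 36 to 124 bp (median 72.5). At Ighv5-2 the lowest, median and highest covered lengths over the 10 RAD21 libraries were 300, 375 and 824 bp, and the authors' folds were 6.24, 8.86 and 13.7. At Ighv2-2 the lengths were 305, 457.5 and 860 bp, with folds of 5.18, 9.55 and 12.3. At Ighv5-6 they were 346, 482.5 and 711 bp, with folds of 6.49, 8.82 and 12.2. The ranges of these 3 sites overlapped in both length and fold, but they pool lists called with and without a control. At each of the 3 the highest fold was that of RAD21 control replicate 2. Each of Ighv5-2 and Ighv2-3 had a NIPBL peak in 1 of 4 lists, and Ighv2-2, Ighv5-4 and Ighv5-6 in none.

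Read gene by gene, the core and the peak went together with exceptions. A window of 130 bases past each 3′ end was searched for the best match on the gene's strand. Only matches centred 30 to 110 bases past the end were scored. An exact core was present at 25 genes, of which 17 had a RAD21 peak there in all 10 lists, 5 in 5 to 9 lists, 2 in 1 to 4 and 1 in none. At 12 genes 10 of 11 positions matched, with 6 in all 10 lists and 3 in none. At 75 genes 8 or fewer matched, with 14 in all 10 lists and 15 in none. In Ighv2 and Ighv5, 16 of 19 genes had the exact core and 12 of those were in all 10 lists. Ighv5-9 had a peak in 8 lists, Ighv5-16 in 6 and Ighv2-9-1 in 4. Among small families, Ighv13-1 in none and Ighv3-3 in 1 list had an exact core, and all 4 Ighv7 genes had 10 of 11 positions and a peak in all 10 lists. Ighv11-1 had an exact core and the authors' folds at its end were 8.41 to 18.9.

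The distance from RSS to core was close to constant where both were found. Of the 115 genes, 80 had a CACAGTG heptamer starting within 30 bases past the 3′ end and 96 had CACANTG, a wider form chosen after the sequences were seen. At the 36 genes with a heptamer and at least 10 of 11 core positions, 53 bases separated them in 21 genes and 51 to 53 in 32, over a range of 45 to 68. The core was sought only 30 to 110 bases past the end, which bounds these distances. All 9 such Ighv2 genes had 53 bases, and the median over 9 Ighv5 genes was 51.

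**Figure D4:**
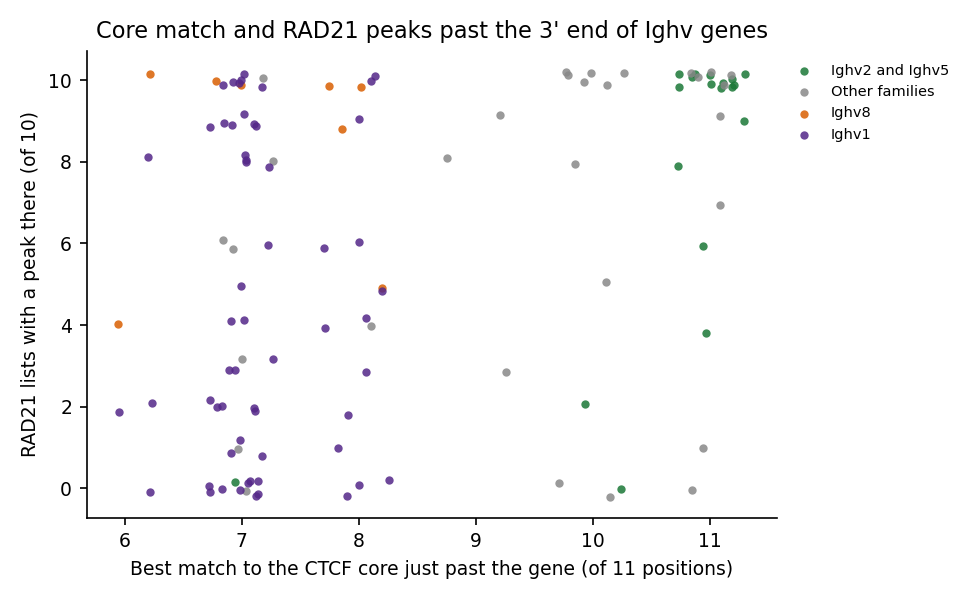
Number of RAD21 lists with a peak in the 130 bases past the 3′ end (y axis) for each Ighv gene by its best match to the core of the CTCF consensus (x axis, positions of 11), by family, with points shifted slightly so that they can be told apart. Of 25 genes with all 11 positions 17 reach 10 lists, and 14 of 75 genes with 8 or fewer also do.

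In the distal domain, Ighv1 had another arrangement. None of its 58 genes had more than 8 of 11 positions in a match centred 30 to 110 bases past the 3′ end. A RAD21 peak lay within 130 bases past the 3′ end in all 10 lists at 8 of them. Of the 79 constant sites nearest to an Ighv1 gene, 8 lay within 1 kb of the 3′ end. A group of 10 lay at -1721 to -1119 bp (median -1254), all 10 with a core, and 7 of these were between -1300 and -1200 bp. They belong to Ighv1-50, Ighv1-53, Ighv1-55, Ighv1-59, Ighv1-62-3, Ighv1-64, Ighv1-67, Ighv1-69, Ighv1-72 and Ighv1-74. Another 11 lay at -2953 to -2122 bp (median -2637), none with an exact core and 7 with 10 of 11 positions. A further 16 lay at -3985 to -3088 bp (median -3787.5), 10 of them with a core. The median fold percentile was 66.5 within 1 kb, 89.1 in the first upstream group, 56.1 in the next and 82.5 in the most remote of the 3. The first 2 upstream groups were thus uniform in core content, and the other groups held sites with and without a core.

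**Figure D5:**
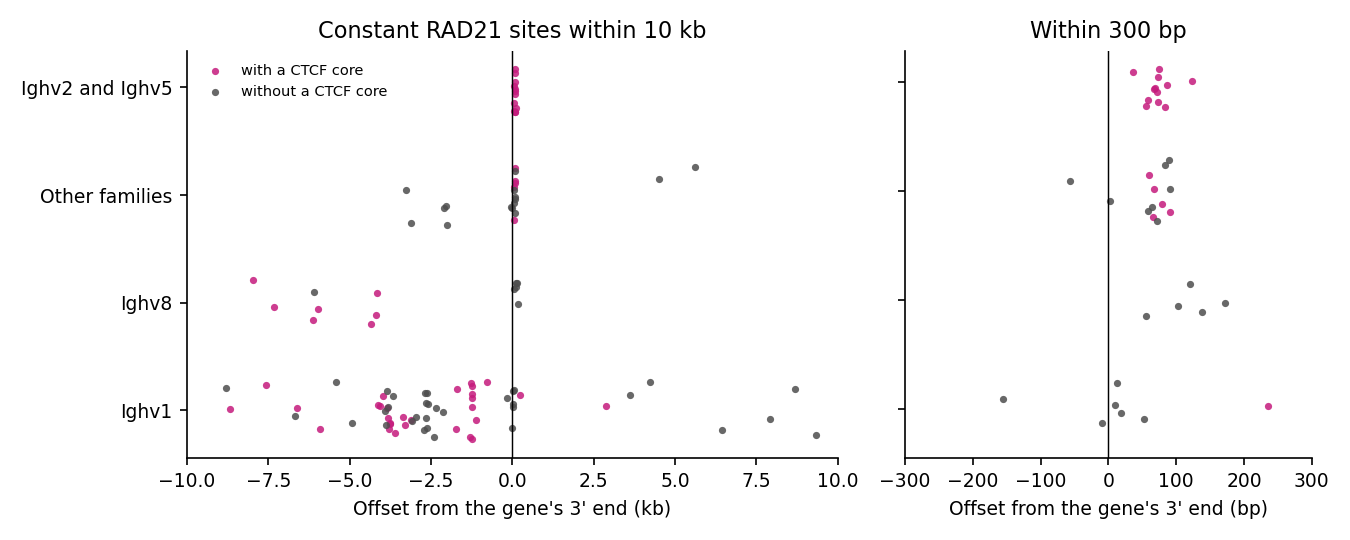
Position of constant sites relative to the 3′ end of the nearest Ighv gene (x axis, negative upstream), by family. Sites within 10 kb are on the left (kb) and those within 300 bp on the right (bp). Sites holding a core of the CTCF consensus are set apart. Ighv2 and Ighv5 sites lie at 36 to 124 bp. A group of 10 Ighv1 sites, all with a core, has a median of -1254 bp, and 10 of 16 at -3985 to -3088 bp hold a core.

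The 3 sites of highest fold percentile were of these Ighv1 groups. At the site -3863 bp from Ighv1-78, which had 10 of 11 positions, the authors' folds were 10.4, 14.6 and 19.4 (lowest, median and highest over 10 RAD21 libraries), and the mean percentile within the lists was 98.0. At -3985 bp from Ighv1-75 folds were 10.6, 12.9 and 16.3, and at -1253 bp from Ighv1-72 they were 10.0, 12.5 and 18.9. The first 2 had no NIPBL peak in any list, and the third had one in 2 lists.

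Ighv8 is known for PAIR elements upstream of some of its genes, which bind Pax5, E2A, CTCF and cohesin in pro-B cells. Of its 8 genes, 7 had a constant site with a core upstream, at 4163 to 7964 bp from the 3′ end. The nearest were those of Ighv8-8 (4163 bp), Ighv8-5 (4182 bp) and Ighv8-14 (4351 bp), and the remotest was that of Ighv8-12 (7964 bp). Ighv8-9 had a constant site 6098 bp upstream that held 10 of 11 positions and no exact core. At the other end of the gene, 5 of the 8 had a constant site 55 to 172 bp past the 3′ end, none with a core. The median fold percentile was 89.1 over 8 sites 4 to 8 kb upstream and 60.8 over the 5 at the 3′ end. Whether the upstream sites are PAIR elements was not tested.

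By family, the share of genes with a constant site within 1 kb of the 3′ end was 38 of 115 in all. It was 8 of 58 for Ighv1, 5 of 9 for Ighv2, 7 of 10 for Ighv5, 5 of 8 for Ighv8, 4 of 4 for Ighv7, 2 of 2 for Ighv11 and 0 of 6 for Ighv3.

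NIPBL peaks in VH were few, and the loader was absent from most cohesin sites as called. NIPBL had 76 and 118 VH peaks in block libraries, against 79 and 82 in control libraries. Of the 132 constant RAD21 sites, 80 had no NIPBL peak in any of the 4 lists. Of the 16 sites with NIPBL in all 4 lists, 8 were constant RAD21 sites and 8 had no RAD21 peak in any list, and none of those 8 held a core. All 5 constant Ighv8 sites at the 3′ end and all 8 constant Ighv1 sites within 1 kb had NIPBL in at least 1 list, against 3 of 12 for Ighv2 and Ighv5. Upstream of Ighv1 genes it was 7 of 10 sites at 1 to 2 kb, 3 of 11 at 2 to 3 kb and 2 of 16 at 3 to 4 kb. Upstream of Ighv8 genes it was 4 of 8 sites at 4 to 8 kb.

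The site at -1119 bp from Ighv1-69, found in all 14 lists, was 4786 bp wide. RAD21 covered 966, 3193.5 and 4451 bp of it (lowest, median and highest of 10), and NIPBL 484 and 904 bp in block libraries, against 412 and 386 bp in control libraries. The site at 19 bp past the end of Ighv1-59 was also in all 14 lists, with NIPBL at 426 and 469 bp in block libraries, against 487 and 187 bp in control libraries. Another such site, 12560 bp past Ighv6-3, had NIPBL at 589 and 526 bp in block libraries, against 576 and 558 bp in control libraries, with authors' NIPBL folds of 3.76 to 7.56. RAD21 covered 134, 244 and 745 bp of it (lowest, median and highest of 10), with folds of 3.45 to 5.79. Of the NIPBL sites with no RAD21 peak, the widest, 1050 bp, lay at -8687 bp from Ighv3-8 and had 632 and 941 bp covered in block libraries, against 611 and 549 bp in control libraries. In the sixth stretch, from Ighv1-30 to Ighv1-47, NIPBL covered 0.0842% to 0.186% in all 4 libraries, the lowest median of the 10 stretches.

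Targeting dCas9 with the Sg1-sgRNA was compared with dCas9 alone. RAD21 relative coverage of VH differed by -0.97 on the log2 scale, with log2 means of 1.98 ± 1.27 in block and 2.95 ± 0.366 in control libraries (SD, n = 2 each; exact permutation p = 0.667, where the smallest possible with 2 against 2 is 0.3333). Within replicate number 1 the difference was -0.33 and within number 2 it was -1.61, and leaving out 1 library gave -1.87 to -0.07, the last of these without block replicate 2.

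With limma, 0 of 16780 windows of 10 kb over the genome (0%) had an adjusted p under 0.05 and 3 an unadjusted p under 0.05. Of the 92 VH windows tested, 0 passed either threshold. With replicate number as a block, 557 windows over the genome had an unadjusted p under 0.05, among them 27 of the 92 VH windows, all lower in block libraries, and 0 VH windows passed the adjusted threshold. Of the 92 VH windows, 84 had a lower and 8 a higher covered length in block libraries, with a median log2 difference of -0.43, against 0.10 over all windows. Without block replicate 2 the same count was 64 lower and 36 higher of 100, with a median of -0.14, against -0.03 over all windows.

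A region was gained when the 2 block libraries had a peak in it and the 2 control libraries had none, and lost in the reverse case. These were counted without a test. In VH, 0 of 655 regions were gained with the block, against 1.15% of all regions in the genome, and 25 were lost (3.82%), against 0.278% of all regions. These counts rested on single libraries. Without block replicate 2 they were 120 gained and 26 lost, without block replicate 1 they were 2 and 111, without control replicate 1 they were 0 and 158, and without control replicate 2 they were 13 and 102. Shares over the genome were not computed with a library left out, so these counts have no background. Of the 25, 18 lay distal of the midpoint, 2 overlapped a constant site and 1 lay in a merged site with a core. The one with most covered bases was 6318 bp past Ighv1-62-3 (chr12:116692511-116693274), with 0 and 0 bp covered in block libraries, against 217 and 759 bp in control libraries. At -850 bp from Ighv5-12 it was 0 and 0 bp, against 260 and 400 bp in control libraries. That region is only a part of the constant site of Ighv5-12, which holds a core and a RAD21 peak in both block libraries. At 5268 bp past Ighv1-72 the covered length was 0 and 0 bp in block libraries, against 200 and 461 bp in control libraries. These regions are short, and authors' folds in the control libraries were 3.31 to 3.83 at these 3. Within replicate number 1, 179 regions were in the block library only, 108 in the control library only and 269 in both. Within number 2, 4 were in the block library only, 288 in the control library only and 167 in both. More regions were in the block library only in the first pair, and in the control library only in the other. Coverage was lower in both block libraries without overlap in 1 of the 10 VH stretches, the first, against 1.25% of all stretches, and higher in none, against 9.09%.

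NIPBL in the same cells had 15 of 231 VH regions gained with the block (6.49%), against 2.48% of all regions, and 4 lost (1.73%), against 1.65%. Relative coverage was higher in block libraries by 0.44 on the log2 scale, with log2 means of -0.30 ± 0.0676 in block and -0.74 ± 0.0667 in control libraries (SD, n = 2 each; exact permutation p = 0.3333, the smallest possible). Within replicate number it was 0.54 and 0.35. It was 1.66 with peaks of −log10 q of at least 3 and 0.71 with lists of equal length, each at the same smallest p. With 1 library left out, 19 to 74 VH regions were gained, the highest without block replicate 1, and 6 to 51 lost, the highest without control replicate 1. Shares over the genome were not computed for these counts either. Of the 15 gained regions, 11 lay distal of the midpoint, 7 overlapped constant RAD21 sites, and 5 a merged site with a core. At -1398 bp from Ighv1-67, NIPBL covered 404 and 522 bp in block libraries, against 0 and 0 bp in control libraries. That region is only a part of a wider merged site, which held a NIPBL peak in 3 lists, a control list among them. At -119 bp from Ighv2-6 it covered 139 and 397 bp in block libraries, against 0 and 0 bp in control libraries. The largest lost region was at -13479 bp from Ighv7-4, with 0 and 0 bp in block libraries, against 51 and 1008 bp in control libraries. In 5 of 10 stretches both block libraries were above both control libraries, against 19.0% of all stretches, and in none below, against 11.1%. With limma 0 of 14652 windows (0%) passed the adjusted threshold (1501 had an unadjusted p under 0.05), and of 7 VH windows 0 passed and 1 had an unadjusted p under 0.05.

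The Ig2b deletion was compared with wild type. RAD21 relative coverage of VH differed by 0.01 on the log2 scale, with log2 means of 3.49 ± 0.0393 in deleted and 3.49 ± 0.0951 in wild type libraries (SD, n = 3 each; exact permutation p = 1, where the smallest possible with 3 against 3 is 0.1). It was 0.04, 0.08 and -0.11 within replicate numbers. Leaving out either of 2 libraries changed its sign, to -0.02 without deleted replicate 1 and -0.04 without wild type replicate 2, so no direction is given. With peaks of −log10 q of at least 3 only, it was 0.20 and the groups did not overlap (exact permutation p = 0.1, the smallest possible). Without division by the genome's coverage it was 0.38 (exact permutation p = 0.4).

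Of 868 VH regions, 11 were gained with the deletion (1.27%), against 0.931% of all regions, and 1 was lost (0.115%), against 0.191%. Both shares were near those of the genome. With 1 library left out, 16 to 44 VH regions were gained, the highest without deleted replicate 3, and 2 to 10 lost, the highest without wild type replicate 3. For these counts, shares over the genome were not computed. The largest gained region, at -138 bp from Ighv1-81, had 359, 525 and 197 bp covered in deleted libraries, against 0, 0 and 0 bp in wild type libraries, with authors' folds of 3.49 to 3.82. The lost region, at -14513 bp from Ighv1-64, had 0, 0 and 0 bp in deleted libraries, against 98, 292 and 217 bp in wild type libraries. No stretch of VH was without overlap in either direction, against 8.79% higher and 1.22% lower of all stretches. With limma 0 of 8119 windows (0%) passed (897 had an unadjusted p under 0.05). Of 94 VH windows 0 passed and 12 had an unadjusted p under 0.05, of which 11 were higher. The median log2 difference over VH windows was 0.29, against 0.23 over all windows, and is read relative to that.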

How the data were processed

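The deposited files were 14 broadPeak lists from 18 samples; the 4 inputs had no file here. Per the labels' protocols, cells were fixed in 1% formaldehyde for 10 min and 5 ug of antibody was used. The submitters' processing notes name the build mm9 and the tools Bowtie2 2.2.8, SAMtools 1.8 and MACS2, with no role for each, and the MACS2 version is not given in the sources used here. Each list belongs to a single library. By the names of its peaks, each dCas9 list was called with a control and each Ig2b list names none and names duplicate removal. Folds of different lists are therefore not on one scale. Fold percentiles were taken within each list, while ranges of fold over the RAD21 libraries pool both kinds of list. Fold, a ratio over background for each peak, was deposited by the authors. The deposited lists also give −log10 p and −log10 q. The score column, which the authors' caller derived from −log10 q, was not used. Read depth is unknown, so no counting interval was given.

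Peaks were merged where they overlapped by 1 bp. Covered length counts each base under any peak of a library once, and the genome is 19 autosomes and X. Gene ends were read from GENCODE vM1 on the same build, and its older names were turned into Ighv symbols through the synonyms of a RefSeq table of GRCm38.p6, used for names only, where all 115 matched. CTCF cores were exact matches on either strand. The log2 of covered bp plus 500 was tested in 10 kb windows (mean covered length 500 bp or more) by limma (version 3.58.1, R 4.3.3) with two-sided p-values and Benjamini-Hochberg adjustment over all windows at 0.05, and this step was tested on simulated data. Single values were tested by exact two-sided permutation. Other steps used Python 3.11.15, numpy 2.4.6, pandas 2.3.3, pysam 0.24.0 and matplotlib 3.10.9.

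The sites, gene lists and tests were chosen with earlier results of these data known. Named sites were the 5 most proximal and distal constant sites, the 5 of highest fold percentile, up to 5 in all 14 lists by fold percentile, and up to 5 gained or lost per comparison by covered length, of which some are printed. Ighv6-3, the NIPBL sites without RAD21 and the genes shown as exceptions were chosen after their values were seen.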

Additional observations from a re-analysis of the deposited data

Results flagged for a closer look

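RAD21 block replicate 2 had the lowest relative coverage of VH of the 10 RAD21 libraries, 1.08 on the log2 scale, and the next lowest was 2.69, in control replicate 2. The gap was 0.646 of the whole range, above Dixon's 95% critical value for 10 values. The same library had a log2 difference between VH and Igk V of -1.30, the next lowest being 0.15, a gap of 0.470 of the range. The 10 libraries come from 4 groups, and chance alone marks about 1 in 20 sets of values. The library also had 168 VH sites, against 291 to 548 in the other 9, and its list held 79842 peaks over the genome.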

How the results depend on the processing

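Over 19 results, 184 alternative values were computed, of which 124 kept their direction and side of the threshold or stayed within 1.5 times, 44 moved further, 14 no longer passed and 2 reversed. The cause of the changes was not tested. At −log10 q of at least 3 the merged sites were 262, the constant sites 84, the genes with a constant site within 1 kb 17 and the core share 64.3%. Merging sites up to 500 bp apart gave 620 sites, lists cut to equal length gave 699, and asking that 50% of a site be covered gave 10 constant sites. A looser core gave 63.6%, and a limit of 5 kb gave 78 genes. Regions lost with the block were 5 (q), 16 (equal length) and 11 (50% covered). With the Ig2b deletion they were 2 gained at equal length and 1 at 50% covered, and 0, 2 and 0 lost. For NIPBL they were 3, 7 and 8 gained, and 0, 2 and 1 lost. These counts are of VH alone, and shares over the genome were not computed for them. Quantile normalization called 1 of 94 VH windows for the deletion, lower, with limma adjusted p = 0.0403. Over the genome it called 10 of 8119 windows, of which 4 were higher. RAD21 minus NIPBL, chosen after seeing the data, was 2.27 in block cells and 3.69 in control cells (exact permutation p = 0.3333 each).

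Leaving out 1 library gave 1031 to 1085 sites, 132 to 162 constant sites and 0 to 0 VH windows called in each comparison. Differences in relative coverage were -1.87 to -0.07 (RAD21 block), -0.043 to 0.051 (deletion; -0.017 without deleted replicate 1, -0.043 without wild type replicate 2), 0.40 to 0.49 (NIPBL block), 2.73 to 3.44 (RAD21 minus NIPBL) and 0.54 to 0.89 (VH minus Igk V). The distal part exceeded the proximal part by 8.12 to 9.55 points. Gained and lost regions were 0 to 120 and 26 to 158 (RAD21 block), 16 to 44 and 2 to 10 (deletion), and 19 to 74 and 6 to 51 (NIPBL). They were counted in VH only, without shares over the genome.

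With replicate number as a block the relative coverage differences were -0.97, 0.01 and 0.44 (exact sign-flip p = 0.5, 1 and 0.5), and limma called 0 VH windows, with 27 VH windows at an unadjusted p under 0.05 for RAD21 block minus control. To look for pairing, the mean of each group was subtracted in each 10 kb window. These deviations correlated between same-numbered libraries at 0.79 (RAD21 dCas9), 0.05, 0.15 and 0.21 (Ig2b) and 0.21 (NIPBL). Unlike numbers gave -0.79 (RAD21 dCas9) and -0.21 (NIPBL), since deviations in a group of 2 libraries mirror each other. These values do not measure how alike the libraries are. The labels tie same-numbered libraries to no shared source. The RAD21 dCas9 lists of the same number also share a style of peak names. The Ig2b and NIPBL libraries share only a number.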
